A study of Homo sapiens with 60 samples.

Results

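The cytosolic ribosomal protein genes encode the proteins of the small and large subunits of the ribosome that translates nuclear mRNA. They were taken by symbol: protein-coding genes named RPL or RPS followed by a number and at most one letter (A, L or X), with RPLP0, RPLP1, RPLP2, RPSA, RPL7L1, RPL22L1, RPL26L1 and RPL39L added, and with S6 kinases, pseudogenes and RPS4Y genes left out. This gave 84 of the 60675 genes in the deposited table, of which 82 had enough counts to be tested. The untested genes were RPL10L, which had 0 counts in every library (a count of 0 allows up to 3), and RPL39L, whose highest count in any library was 1. Both are paralogues known for expression in testis.

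The libraries came from HepG2, an established human hepatocellular carcinoma line, harvested after 24 h with the water extract of a tonifying herbal medicine or with vehicle. The extracts came from 4 herbs, namely Cinnamomi Cortex, Astragali Radix, Cnidii Rhizoma and Rehmanniae Radix Preparata, and from 3 formulas, namely Palmul-tang, Samul-tang and Sagunja-tang, at doses of 20, 100 and 500 µg/mL. The vehicle is labelled 0.1% DMSO, whereas the series text gives 2%. No DMSO content was recorded for the extract libraries, so a possible difference in DMSO cannot be told apart from treatment in a comparison with vehicle. All groups used the same parental line, with no genetic change named, and each holds 3 libraries except the Palmul-tang doses with 1 each, 60 libraries in all. Sample codes place Cnidii and Rehmanniae in set 5, Cinnamomi and Astragali in set 6, Sagunja and Samul in set 7 and Palmul in set 8, and give the vehicle no set number, so set and treatment cannot be told apart in a comparison with vehicle. Comparisons of doses of 1 extract, and of 2 extracts of 1 set, do not involve the vehicle. The labels do not say whether the replicates were separate cultures, so p-values measure the spread between these libraries, which may be technical.

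Ribosomal proteins are made in near equal numbers and assembled with ribosomal RNA in the nucleolus, and liver cells, which secrete much protein, are rich in ribosomes. Their mRNAs are short, abundant and mostly begin with a 5′ terminal oligopyrimidine (TOP) motif: a C at the first transcribed base followed by a run of C and T (U in the RNA). The kinase complex mTORC1, largely through the RNA-binding protein LARP1, controls how strongly TOP mRNAs are translated and stored. The data here are mRNA levels relative to the other RNA of a library, so fewer transcripts per cell and more of other RNA cannot be told apart, and translation was not measured.

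A window of 30 bases around the start site, 10 before it and 20 from it on, was read from RefSeq (GRCh38.p14) for 67 of the 84 genes. At least one annotated start with a C at the first base and a pyrimidine run of 5 bases or more was present in 47 of the 67 (70.1%), against 7.20% of the 11096 tested genes that had a window. Counted per window, such a start was present in 47 of the 83 windows of these genes (56.6%), against 4.07% of all 35116 windows of the table. Among the 47 genes, the run had a median length of 8 bases. The windows shown first belong to 6 genes that are described below and have the run, chosen to show it, and to RPL27 and RPL9, also described below, which lack it. They are written 5′ to 3′ on the gene's strand, with the pyrimidine run from the first transcribed base in capitals.
RPLP1, chr15:69452808-69452837, plus strand: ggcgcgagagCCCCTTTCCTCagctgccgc
RPL41, chr12:56116623-56116652, plus strand: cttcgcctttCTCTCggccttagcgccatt
RPL37A, chr2:216498834-216498863, plus strand: gcgtctcttcCTTTCTgggctcggacctag
RPL39, chrX:119791611-119791640, minus strand: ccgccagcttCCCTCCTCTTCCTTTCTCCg
RPS13, chr11:17077648-17077677, minus strand: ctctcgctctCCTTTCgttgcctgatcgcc
RPS3A, chr4:151099618-151099647, plus strand: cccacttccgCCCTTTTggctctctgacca
RPL27, chr17:42998409-42998438, plus strand: gtgaaaggttagcggaagtgtccttctttc
RPL9, chr4:39458903-39458932, minus strand: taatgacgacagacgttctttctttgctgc

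In the first 6 of these windows the run was between 5 (RPL41) and 19 bases (RPL39). A second set compares the paralogues with the abundant gene of the 3 pairs in which both genes were tested and had a window, since the genes of a pair differed in level.
RPL22, chr1:6199576-6199605, minus strand: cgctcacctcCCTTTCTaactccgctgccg
RPL22L1, chr3:170870176-170870205, minus strand: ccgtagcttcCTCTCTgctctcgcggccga
RPL26, chr17:8383174-8383203, minus strand: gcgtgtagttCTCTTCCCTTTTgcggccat
RPL26L1, chr5:172958719-172958748, plus strand: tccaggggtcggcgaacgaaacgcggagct
RPS27, chr1:153990752-153990781, plus strand: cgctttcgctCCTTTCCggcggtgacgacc
RPS27L, chr15:63157458-63157487, minus strand: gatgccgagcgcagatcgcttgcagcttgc

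RPL22L1 had the pyrimidine start, as RPL22 did. In the windows of RPL26L1 and RPS27L these letters were not present, whereas RPL26 and RPS27 had them. A match here is a description of the annotated start, not a measured start site.

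Library totals ran from 16.5 M to 34.4 M counts (median 25.5 M, with M the SI prefix mega). Levels are given as CPM, a gene's counts per M counts of its library, scaled by TMM, a factor that sets the typical gene equal between libraries. That factor was 0.834 to 0.863 in the 3 libraries of Cinnamomi Cortex at 500 µg/mL and between 0.916 and 1.05 in all others, so the scale matters most for that group. Genes of the mitochondrial genome took 19.4 to 22.3% of counts in those 3 libraries and 14.4 to 16.7% in vehicle. Hepatocyte markers were abundant: 9 of them (ALB, AFP and APOB included) summed to between 52057 and 66831 CPM in every library. Of 10 markers of other cells, KRT5 was at 0 in every library and PTPRC, COL1A2 and DES at or below 0.159 CPM. COL1A1, VWF and PECAM1 reached at most 2.6 CPM, whereas CD68 was at 46.5 to 150 CPM and ACTA2 at 51.7 to 73.8 CPM. The sum of the 10, mostly LYZ (1068 to 3304 CPM), was 1278 to 1418 CPM in vehicle and 3091 to 3487 CPM in Cinnamomi Cortex at 500 µg/mL. The part of these differences in the results below was not tested. The 1598 annotated ribosomal protein pseudogenes together held 1.40 to 1.95 counts for every 100 of the 84 genes, and how the counting split reads between a gene and its copies was not tested.

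Together the 84 genes took between 2.98 and 3.83% of all counts. In vehicle the shares were 3.59, 3.71 and 3.27%, and in Cinnamomi Cortex at 500 µg/mL 3.33, 3.33 and 3.66%, so these groups overlapped. On the TMM scale the summed level was 34882, 35734 and 32401 CPM in vehicle and 39730, 39941 and 42430 CPM in Cinnamomi Cortex at 500 µg/mL, with no overlap. The lowest library of all on both scales was the third of Samul-tang at 500 µg/mL, with 2.98% and 28711 CPM, beside 3.28 and 3.40% in the other libraries of its group.

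**Figure D1:**
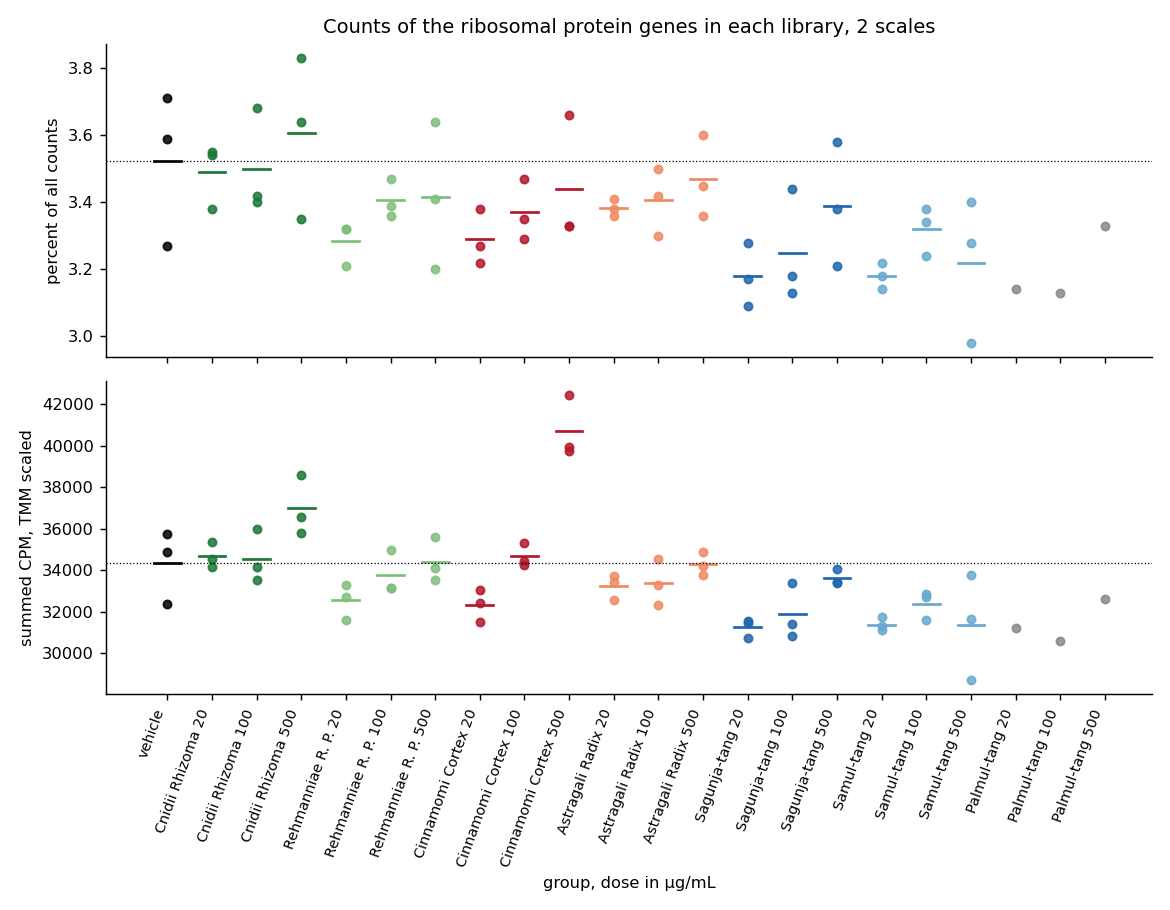
Share of all counts (percent, upper panel) and summed TMM-scaled CPM (lower panel) of the 84 ribosomal protein genes in each of the 60 libraries, by extract and dose in µg/mL; points are libraries, short bars group means and the dotted line the vehicle mean. Cinnamomi Cortex at 500 µg/mL lies above every other group in CPM (39730 to 42430) but overlaps vehicle as a share of counts (3.33 to 3.66% against 3.27 to 3.71%).

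Of the 6 comparisons of a top dose with vehicle, Cinnamomi Cortex (cinnamon bark) at 500 µg/mL had the most genes called. With TMM scaling, 54 of the 82 genes were called higher and 2 lower (edgeR quasi-likelihood test, Benjamini-Hochberg adjusted p under 0.05 over all 16167 genes tested), whereas with total counts alone 5 were higher and 16 lower. Of all genes tested, 31.1% were called higher in this comparison with TMM and 31.6% lower. Shares of all genes called with total counts are not given here, so the total-count tallies in all paragraphs have no such background beside them. Of the 56 genes called with TMM, 23 had the opposite sign with total counts, and 2 of these (RPL14 and RPSA, named for this) were then called lower. The median log2 fold change of the 82 was 0.25 with TMM and -0.03 with total counts. That of all genes moved from -0.02 to -0.30. The 82 stood 0.27 above the median gene on either scale, but a change of scale moves all genes by nearly the same amount. The gap is therefore no check on the scaling. All 3 Cinnamomi libraries lay above all 3 vehicle libraries for 51 of the 82 genes on the TMM scale, against 33.2% of all genes.

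Among the roles, the 3 stalk genes had the highest median with TMM (0.35), although RPLP0 turned sign with total counts. RPLP0, RPLP1 and RPLP2 form the flexible stalk of the large subunit that recruits the translation GTPases. RPLP1 was at 253, 368 and 282 CPM in vehicle and at 388, 531 and 487 CPM in Cinnamomi Cortex at 500 µg/mL. Each treated library lay above each vehicle library, and the log2 fold change was 0.64 ± 0.12 (SE, adjusted p = 1.36e-05). RPLP2 went from 181, 219 and 182 CPM to 219, 252 and 271 CPM, with a log2 fold change of 0.35 ± 0.094 (adjusted p = 0.00123), and its lowest treated library adjoined the highest vehicle library. RPLP0 was at 914, 931 and 886 CPM and then at 1010, 1044 and 1122 CPM, or 0.22 ± 0.061 on the log2 scale (adjusted p = 0.00167), which became -0.06 with total counts alone. With total counts RPLP1 stood at 0.36 (adjusted p = 0.0142) and RPLP2 at 0.07, not called.

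In the large subunit, 32 of 43 genes were called higher and 1 lower with TMM, and the median log2 fold change was 0.26; the direction of most depended on the scaling as given above for the 82. RPL41, the smallest ribosomal protein, was at 455, 526 and 488 CPM in vehicle and 694, 762 and 809 CPM in the treated libraries, a log2 fold change of 0.62 ± 0.099 (adjusted p = 3.26e-07). RPL37A, a zinc-binding protein, was at 542, 652 and 510 CPM and then at 812, 813 and 931 CPM (log2 fold change 0.58 ± 0.10, adjusted p = 2.79e-06). Neither gene's groups overlapped. RPL39, which lines the exit tunnel of the nascent chain, was at 215, 225 and 210 CPM and then 282, 315 and 331 CPM, or 0.51 ± 0.10 on the log2 scale (adjusted p = 2.71e-05). RPL8, which lies beside the catalytic centre, had the smallest adjusted p of the 82 genes: its vehicle libraries at 505, 507 and 501 CPM and treated libraries at 683, 689 and 704 CPM gave a log2 fold change of 0.46 ± 0.049 (adjusted p = 2.33e-11). RPL27 rose from 398, 462 and 446 CPM to 619, 629 and 603 CPM (log2 fold change 0.50 ± 0.10, adjusted p = 3.67e-05). The 5 genes called higher with total counts as well were RPLP1, RPL41, RPL37A, RPL27 and RPL8, chosen here after their values were seen. For RPL39 the value with total counts was 0.24 (adjusted p = 0.0626).

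RPL5 and RPL11 join the smallest ribosomal RNA in a particle that can also bind MDM2, the regulator of p53. RPL5 was at 447, 470 and 460 CPM in vehicle and 506, 521 and 537 CPM in Cinnamomi Cortex at 500 µg/mL, a log2 fold change of 0.18 ± 0.054 (adjusted p = 0.00267) that turned to -0.09 with total counts. RPL11 was at 462, 535 and 512 CPM and then at 618, 583 and 652 CPM, or 0.30 ± 0.094 on the log2 scale (adjusted p = 0.00548), and 0.02 with total counts, not called. RPL6 was the large-subunit gene called lower. It was at 570, 556 and 545 CPM in vehicle and 529, 503 and 498 CPM after treatment, with no overlap (log2 fold change -0.13 ± 0.042, adjusted p = 0.00819), and was lower with total counts too (-0.41).

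In the small subunit, 19 of 31 genes were called higher and none lower with TMM (0 of 31), with a median of 0.25 that again rests on that scaling. RPS9, which lies near the mRNA entry channel, was at 202, 241 and 203 CPM in vehicle and 285, 290 and 320 CPM after treatment, a log2 fold change of 0.47 ± 0.078 (adjusted p = 9.21e-07). RPS27, a zinc-finger protein, went from 504, 539 and 491 CPM to 673, 690 and 716 CPM (log2 fold change 0.44 ± 0.073, adjusted p = 9.08e-07). Both sets of groups were fully apart, and with total counts the changes were 0.19 and 0.16, neither called. RPS6, the substrate of S6 kinase downstream of mTORC1, was at 947, 978 and 988 CPM in vehicle and at 984, 974 and 1041 CPM after treatment, overlapping groups that gave 0.04 log2 with TMM (adjusted p = 0.519) and -0.24 with total counts, where it was called lower (adjusted p = 0.00149). RPS27A, made as a fusion with ubiquitin, had a value of 0.12 (adjusted p = 0.33), and RPS3A, at the mRNA exit side of the small subunit, one of 0.13 (adjusted p = 0.115). RPSA, first described as a laminin receptor, was at 609, 659 and 659 CPM and then 678, 707 and 714 CPM (log2 fold change 0.12 ± 0.049, adjusted p = 0.0283). Its call was lost without vehicle replicate 1 or without the second or the third treated library, and with total counts it was called lower (-0.16, adjusted p = 0.023).

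**Figure D2:**
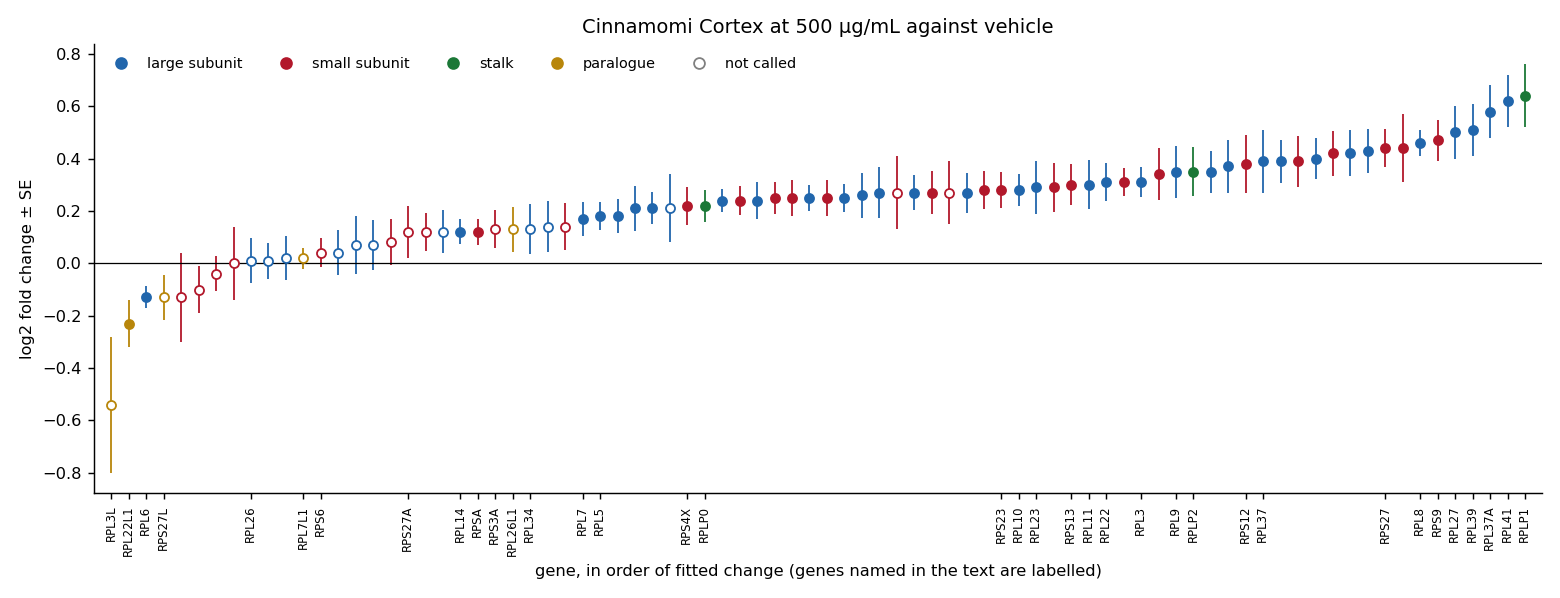
Log2 fold change with its standard error (vertical axis) of each of the 82 tested ribosomal protein genes in Cinnamomi Cortex at 500 µg/mL against vehicle, TMM scaling, in order of size and coloured by role, with the genes named in the text labelled; filled points were called at an adjusted p under 0.05 and open points were not. Values run from -0.54 (RPL3L, not called) to 0.64 (RPLP1); 54 genes were called higher and 2 lower, counts that became 5 and 16 with total counts alone.

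Each paralogue lay below its canonical gene in vehicle when set per coding length. Per kilobase of coding sequence, mean vehicle levels were 782 CPM for RPL22 and 60.5 CPM for RPL22L1. RPL26 stood at 738 and RPL26L1 at 44.1 CPM per coding kilobase. RPS27 stood at 2028 and RPS27L at 474 CPM per coding kilobase, the second being known as a p53 target. For RPL7 and RPL7L1 the levels were 529 and 245 CPM per coding kilobase. RPL3L, a heart and skeletal muscle form, stood at 0.874 CPM per coding kilobase against 622 for RPL3. RPL10 was at 1055 CPM per coding kilobase while RPL10L had no counts, as given above.

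Of the 5 tested paralogues, 0 were called higher and 1 lower in Cinnamomi Cortex at 500 µg/mL with TMM, and 0 higher and 4 lower with total counts. The 4 were RPL22L1 (-0.51), RPL7L1 (-0.26), RPS27L (-0.41) and RPL3L (-0.81), with adjusted p between 2.23e-05 and 0.00423, and the values that follow are with TMM unless stated. RPL22L1 was at 23.5, 22.7 and 20.1 CPM in vehicle and 19, 17.9 and 19.7 CPM after treatment, narrowly apart, with a log2 fold change of -0.23 ± 0.091 (adjusted p = 0.0256). That call was lost when vehicle replicate 1 or 2, or treated replicate 1 or 2, was left out. RPL22, whose protein is known to restrain RPL22L1, was called higher with TMM, with a log2 fold change of 0.31 ± 0.073 (adjusted p = 0.000248). RPS27L was at 126, 118 and 115 CPM and then 100, 109 and 118 CPM, overlapping (log2 fold change -0.13, adjusted p = 0.19), beside 0.44 for RPS27. RPL26L1 and RPL26 had values of 0.13 and 0.01, neither called. For RPL7L1 the value was 0.02 and for RPL7 0.17 ± 0.064 (adjusted p = 0.0181), the latter lost without vehicle replicate 3 or treated replicate 3 and turning to -0.11 with total counts. RPL3L gave -0.54 ± 0.26 (adjusted p = 0.066), beside 0.31 ± 0.057 for RPL3 (adjusted p = 5.73e-06). RPL10 gave 0.28 ± 0.06 (adjusted p = 5.22e-05). With total counts the calls of RPL22 (0.03), RPL3 (0.03), RPL10 (0.0) and RPS27 (0.16) were lost, and RPL26 was called lower (-0.27, adjusted p = 0.00134). The difference of response within a pair was not tested.

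The 47 genes with a pyrimidine start had a median log2 fold change of 0.27 in this comparison, with 33 called higher and 1 lower, and the 19 with another start a median of 0.12, with 8 higher and 1 lower. The 16 tested genes without a window had a median of 0.27. These medians carry the scaling limit of the 82 genes, and the difference between the classes was not tested. The coding sequences of the 82 genes are short, with a median of 454.5 bases against 1383 for all tested protein-coding genes, and over the 82 genes coding length and log2 fold change had a Spearman correlation of -0.22 (-0.20 over 12751 protein-coding genes). All these points share the same libraries. In the Cinnamomi Cortex dose trend the genes with a pyrimidine start had a median of 0.18 per step, and those with another start 0.13. In Samul-tang at 500 µg/mL against vehicle both medians were -0.13, all on the TMM scale. The 19 genes with another start include the paralogues RPL7L1, RPL26L1 and RPS27L.

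Across the doses of Cinnamomi Cortex, without the vehicle, 63 of the 82 genes were called higher per 5-fold step of dose and 0 lower with TMM, whereas with total counts alone 13 were called higher and 8 lower. Of all genes, 30.5% were called higher in this trend with TMM. The median slope of the 82 was 0.17 log2 per step with TMM and 0.04 with total counts. The median of all genes was -0.01 and -0.14, respectively. The gap of 0.18 is the same on both scales because the scale moves all genes nearly alike, so it is no check on the scaling. For 69 of the 82 the group means stood in the order 20, 100, 500 µg/mL from low to high on the TMM scale. The share of all genes in that order was not counted. Against vehicle, the median log2 difference was -0.09 at 20 µg/mL, 0.01 at 100 µg/mL and 0.25 at 500 µg/mL on the TMM scale. Of the 82 genes, 52 were called both at 500 µg/mL against vehicle and in the trend, which share the 500 µg/mL libraries. In either direction, 62.7% and 61.9% of all genes were called in these comparisons, respectively, and the share called in both was not counted. By role, the trend called 33 large-subunit, 26 small-subunit and 3 stalk genes, and the paralogue RPL26L1, all on the TMM scale.

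RPL39 had the steepest slope called. Its libraries were at 185, 190 and 178 CPM at 20 µg/mL, at 206, 217 and 220 CPM at 100 µg/mL and at 282, 315 and 331 CPM at 500 µg/mL, with no overlap between any doses and a slope of 0.37 ± 0.052 log2 per step (adjusted p = 2.15e-08). RPS13, an early-binding protein of the small subunit, was at 253, 268 and 228 CPM, then 277, 283 and 283 CPM, then 350, 352 and 382 CPM, a slope of 0.27 ± 0.039 (adjusted p = 6.15e-08). RPLP1 was at 280, 327 and 292 CPM, then 300, 351 and 366 CPM, then 388, 531 and 487 CPM, where 20 and 100 µg/mL overlapped and 500 µg/mL stood apart (slope 0.32 ± 0.062, adjusted p = 1.15e-05). The other genes with the steepest called slopes were RPL9, RPL37A, RPL41, RPS12 and RPL37, between 0.28 and 0.33 per step. RPS6, overlapping at the top dose against vehicle, had a called slope of 0.07 (adjusted p = 0.0193) that was lost without the third library at 20 or at 500 µg/mL and was -0.06 with total counts. RPL26L1 was at 16.9, 16.9 and 16.8 CPM at 20 µg/mL and at 20.1, 21.7 and 21.2 CPM at 500 µg/mL (slope 0.16 ± 0.044, adjusted p = 0.00159). RPL22L1 had a slope of -0.03 (adjusted p = 0.573).

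**Figure D3:**
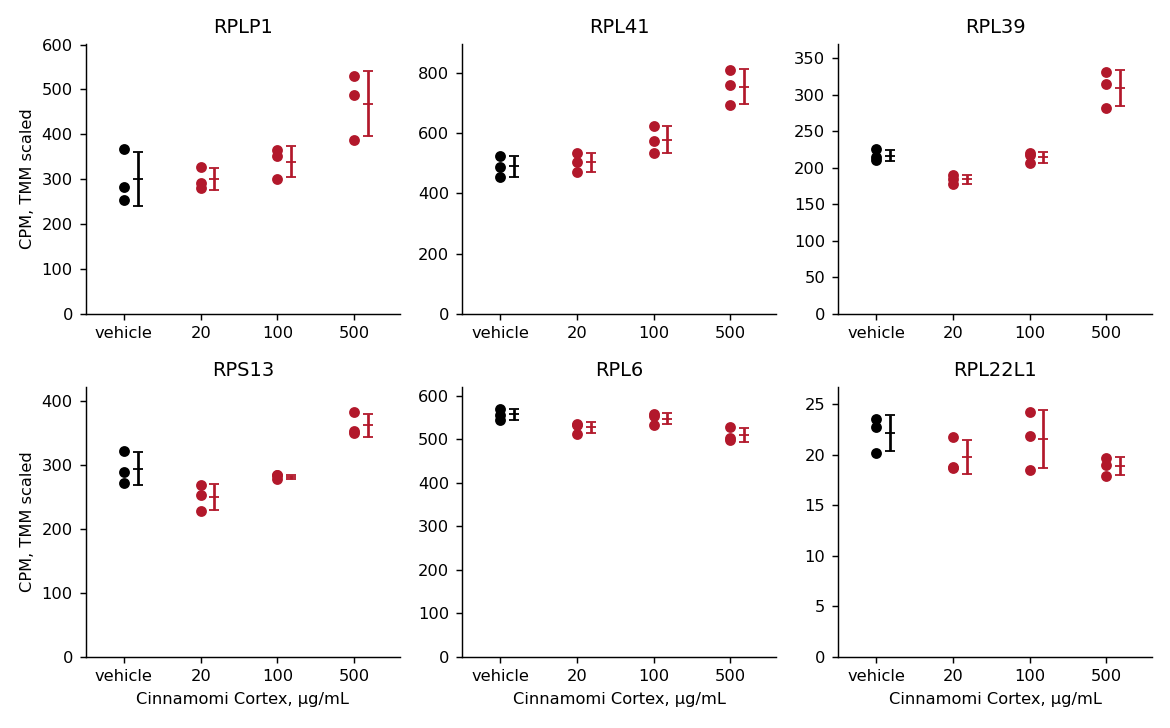
TMM-scaled CPM of 6 ribosomal protein genes in vehicle and in Cinnamomi Cortex at 20, 100 and 500 µg/mL; points are libraries and bars mean ± SD (n = 3). RPL39 reaches 282 to 331 CPM at 500 µg/mL from 178 to 190 CPM at 20 µg/mL, while RPL6 and RPL22L1 lie lower at 500 µg/mL than in vehicle (498 to 529 against 545 to 570, and 17.9 to 19.7 against 20.1 to 23.5).

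Against Astragali Radix, the other herb of set 6, Cinnamomi Cortex at 500 µg/mL had 54 of the 82 genes called higher and 3 lower with TMM, and 9 higher and 15 lower with total counts alone. Of all genes, 30.9% were called higher in this comparison with TMM. The median difference of the 82 was 0.24 log2 with TMM and -0.02 with total counts, beside -0.02 and -0.28 for all genes. RPL37A was at 601, 519 and 541 CPM in Astragali and 812, 813 and 931 CPM in Cinnamomi (log2 difference 0.62), and RPL39 at 223, 177 and 209 CPM and 282, 315 and 331 CPM (0.61). RPS13 was at 215, 259 and 264 CPM in Astragali and 350, 352 and 382 CPM in Cinnamomi, a log2 difference of 0.55 ± 0.078. In each of these 3 genes the extracts stood fully apart. The genes called lower in Cinnamomi were RPL22L1 (-0.27 ± 0.093, adjusted p = 0.0116), RPL6 (-0.15 ± 0.042, adjusted p = 0.00208) and RPS27L. The RPL22L1 call was lost without Astragali replicate 1 or Cinnamomi replicate 2, and that of RPS27L without Cinnamomi replicate 1 or 2 or Astragali replicate 1 or 3. Leaving out the first library of each of the 6 groups of set 6, which share a replicate number, gave 50 genes called in place of 57.

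Astragali Radix itself gave no call in either of its comparisons. At 500 µg/mL against vehicle 0 of the 82 were called (3.04% of all genes in either direction), with 10 genes at an unadjusted p under 0.05 and 2 called by DESeq2, and with 2 called by edgeR without vehicle replicate 3. In its dose trend 0 were called (1.16% of all genes), with 2 at an unadjusted p under 0.05 and 0 by DESeq2.

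Cnidii Rhizoma at 500 µg/mL had 13 of the 82 genes called higher than vehicle and 0 lower, where 6.11% of all genes were called higher, and 4 higher and 1 lower with total counts alone. The median log2 fold change of the 82 was 0.11. Of the 13 called, 10 belong to the large and 3 to the small subunit. RPL27 was at 398, 462 and 446 CPM in vehicle and 703, 516 and 766 CPM in Cnidii, a log2 fold change of 0.60 ± 0.10 (adjusted p = 6.64e-05). RPL8 was at 505, 507 and 501 CPM and 606, 564 and 574 CPM (0.21 ± 0.049, adjusted p = 0.00368), and RPL41 at 455, 526 and 488 CPM and 585, 585 and 758 CPM (0.39 ± 0.099, adjusted p = 0.00585). In each of these the groups did not overlap, and the second Cnidii library was the lowest or tied lowest. RPL11 (0.32 ± 0.094, adjusted p = 0.02) and RPS23 (0.22 ± 0.069, adjusted p = 0.0327) completed the called genes without overlap. The calls of RPL27 and RPL8 held when any 1 library was left out, and those of RPL41, RPL11 and RPS23 were each lost without vehicle replicate 1 or Cnidii replicate 3.

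The Cnidii count rested on few libraries: it was 5 without vehicle replicate 1, without vehicle replicate 3 or without Cnidii replicate 1, and 3 without Cnidii replicate 3. Mitochondrial genes took 16 to 22.6% of counts in the Cnidii libraries at 500 µg/mL, and their part in the result was not tested. In the dose trend of Cnidii 2 genes were called higher, RPL7L1 (0.07 ± 0.02 per step, adjusted p = 0.043) and RPL27 (0.18 ± 0.052, adjusted p = 0.0455). Of all genes, 3.22% were called in either direction, with 219 of 16167 called higher. The count of 2 became 0 without any 1 of the libraries at 20 µg/mL or without the third at 500 µg/mL. It was 1 without the first at 100 or 500 µg/mL, and 9 without the second at 500 µg/mL.

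Rehmanniae Radix Preparata, the steamed root, had 4 of the 82 genes called at 500 µg/mL against vehicle (7.45% of all genes), 2 in each direction with TMM and, with total counts alone, 0 higher and 2 lower. RPL8 was at 579, 559 and 598 CPM, above every vehicle library (log2 fold change 0.20, adjusted p = 0.008), and RPL27 at 535, 549 and 576 CPM (0.35, adjusted p = 0.0291). RPS3A, at 502, 435 and 398 CPM in vehicle, was at 339, 377 and 391 CPM (-0.27, adjusted p = 0.014), and RPS13, at 321, 289 and 271 CPM in vehicle, was at 240, 249 and 255 CPM (-0.24, adjusted p = 0.0445). The groups did not overlap for any of the 4, yet the count was 1 to 3 when any 1 library was left out, with 1 without vehicle replicate 1 and without the first or the third Rehmanniae library, and 2 without the second. The trend of Rehmanniae called 0 of the 82 (0.674% of all genes), with 15 at an unadjusted p under 0.05 and 3 called by DESeq2, with 4 called without the first library at 20 µg/mL and 1 without the first at 500 µg/mL. Between Cnidii and Rehmanniae at 500 µg/mL 0 genes differed by the edgeR test (0.705% of all genes), with 18 at an unadjusted p under 0.05 and 0 by DESeq2; 5 were called without the second Cnidii library. RPL27 was higher than vehicle in both herbs and in Cinnamomi Cortex at the top dose, comparisons that share the vehicle libraries. Its call held without any 1 library in Cnidii and Cinnamomi. In Rehmanniae it was lost without vehicle replicate 1 or 3 or any 1 Rehmanniae library.

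**Figure D4:**
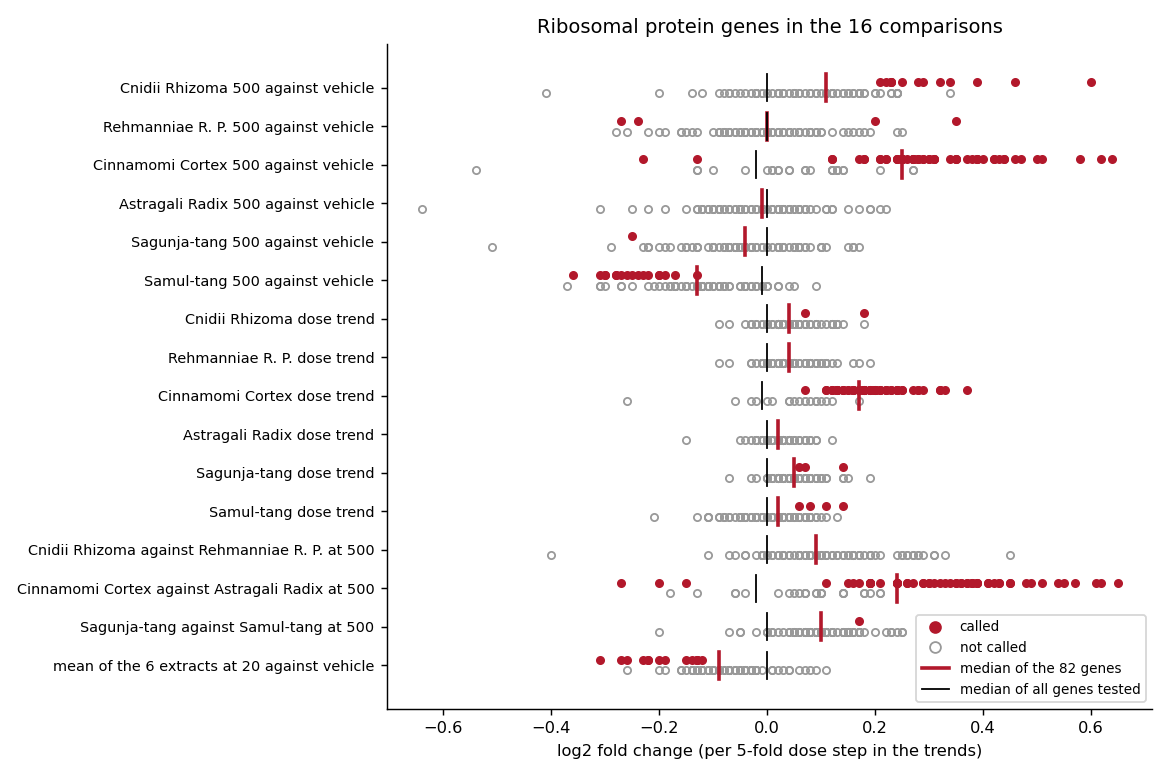
Log2 fold change (horizontal axis; per 5-fold dose step in the trends) of each of the 82 tested genes in the 16 comparisons, TMM scaling; filled red points were called, open points were not, red bars are medians of the 82 genes and black bars medians of all genes tested. The medians of the Cinnamomi Cortex comparisons lie at 0.25, 0.17 and 0.24 (with total counts alone -0.03, 0.04 and -0.02, with all genes at -0.30, -0.14 and -0.28), and that of Samul-tang at 500 µg/mL at -0.13.

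Samul-tang, a formula that in its usual composition includes Rehmanniae and Cnidii, had 17 of the 82 genes called lower than vehicle at 500 µg/mL and 0 higher, where 6.26% of all genes were called lower. The median log2 fold change was -0.13, and 76 of the 82 fitted values were below 0. The calls comprised 10 genes of the small subunit, 6 of the large and the stalk gene RPLP0. RPS13 was at 321, 289 and 271 CPM in vehicle and 252, 223 and 210 CPM in Samul-tang (log2 fold change -0.36 ± 0.078, adjusted p = 0.000997). RPS3A was at 502, 435 and 398 CPM and 379, 356 and 339 CPM (-0.31 ± 0.072, adjusted p = 0.00192). RPLP0 was at 914, 931 and 886 CPM and 768, 770 and 746 CPM (-0.26 ± 0.061, adjusted p = 0.00269). All 3 genes had every treated library below every vehicle library, and the calls of RPS13 and RPLP0 held when any 1 library was left out, while that of RPS3A was lost without vehicle replicate 1.

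RPL10, the last protein to join the large subunit, was at 706, 694 and 631 CPM in vehicle and 590, 603 and 516 CPM (-0.25 ± 0.06, adjusted p = 0.00304). RPS4X (-0.28), RPL34 (-0.30) and RPS27A (-0.30) were also called lower with no overlap, and like RPL10 each lost its call without Samul-tang replicate 3. The call of RPL34 was also lost without vehicle replicate 1 or 2, and that of RPS27A without any 1 vehicle replicate or Samul-tang replicate 2. The count of 17 fell to 8 without vehicle replicate 1 or vehicle replicate 2 and to 3 without Samul-tang replicate 3, the library with the lowest share of ribosomal protein counts. With total counts alone it was 8.

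At 20 µg/mL of Samul-tang the median log2 difference of the 82 from vehicle was -0.16, at 100 µg/mL -0.10 and at 500 µg/mL -0.13, and RPS13 was at 223, 195 and 232 CPM at 20 µg/mL, within or below the range at 500 µg/mL. The dose trend called 4 genes, all higher with dose in the fit of all libraries. Of all genes, 9.88% were called in either direction, with 724 of 16167 called higher. Leaving out 1 library changed the count and the direction. The 4 genes were RPL7 (0.11 per step, adjusted p = 0.0197), RPL22L1 (0.14 ± 0.046, adjusted p = 0.0368), RPL5 (0.08, adjusted p = 0.041) and RPL7L1 (0.06, adjusted p = 0.0438). RPL22L1 was at 17.2, 15.2 and 16.9 CPM at 20 µg/mL and at 22.0, 19.2 and 18.7 CPM at 500 µg/mL, with no overlap. The count was 0 without the second library at 20 µg/mL or the third at 500 µg/mL, 1 without the first at 500 µg/mL, and it was 4 higher and 4 lower without the first at 20 µg/mL, 2 higher and 7 lower without the second at 500 µg/mL, and 7 higher and 4 lower without the third at 20 µg/mL.

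Sagunja-tang, the other formula of set 7, had 1 gene called at 500 µg/mL against vehicle, where 12.3% of all genes were called in either direction. This was RPS3A, lower at 373, 403 and 348 CPM against 502, 435 and 398 CPM (-0.25, adjusted p = 0.0165), with overlapping groups, a gene named here after its value was seen. The count was 0 without vehicle replicate 1, 2 without vehicle replicate 2 or 3, and 6 without the second Sagunja library. Its dose trend called 3 genes, all higher with dose (4.99% of all genes called in either direction, 436 of 16167 higher). RPL22L1 was at 19.9, 17.4 and 21.0 CPM at 20 µg/mL and 24.5, 24.1 and 22.3 CPM at 500 µg/mL (0.14 ± 0.044 per step, adjusted p = 0.0494). RPL7L1 was at 187, 180 and 184 CPM and then 196, 205 and 201 CPM (0.06, adjusted p = 0.0449), and RPL6 had a slope of 0.07 (adjusted p = 0.0295). The groups at 20 and 500 µg/mL did not overlap for any of the 3, and the count was 0 without the second library at 20 µg/mL or the third at 500 µg/mL, and 1 without any 1 of 4 other libraries, the first of each dose or the third at 20 µg/mL. RPL7L1 was called in the trends of Cnidii, Samul-tang and Sagunja-tang, each with a slope of 0.06 or 0.07. When 1 library at a time was left out, its call was lost 5 times in Cnidii, 4 in Samul-tang and 7 in Sagunja-tang. In the Sagunja-tang trend the call of RPL22L1 was lost 8 times and that of RPL6 4 times.

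At 500 µg/mL the formulas of set 7 differed in 1 gene, where 0.885% of all genes were called. RPL6 was at 582, 566 and 598 CPM in Sagunja-tang and 514, 538 and 498 CPM in Samul-tang (log2 difference 0.17 ± 0.042, adjusted p = 0.03), fully apart. That call was lost without the first or the third library of either formula, and 2 genes were called without the second library of Samul-tang. The median difference of the 82 was 0.10, and 76 fitted values were above 0.

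Averaged over the 6 replicated extracts at 20 µg/mL, 14 of the 82 genes were called lower than vehicle and 0 higher, where 8.57% of all genes were called lower. The median log2 difference was -0.09, and 71 of the 82 fitted values were below 0. RPS6 was the gene whose treated libraries all lay below the 3 vehicle libraries (-0.13 ± 0.041, adjusted p = 0.0254), a call lost without any 1 of the 3 vehicle replicates. Further called genes, named here as in the comparisons above, were RPS3A (-0.26), RPS13 (-0.27), RPLP0 (-0.14), RPL39 (-0.22), RPS27A (-0.22), RPSA (-0.13) and RPL22L1 (-0.23). The count was 3 without vehicle replicate 1 and 2 without vehicle replicate 2. Of the 14, 9 were also called lower in Samul-tang at 500 µg/mL (64.3% of the 14 and 52.9% of the 17), and these comparisons share the vehicle libraries. The share of all genes called lower in both was not counted. By extract, the median difference from vehicle at 20 µg/mL ran from 0.01 in Cnidii to -0.16 in Samul-tang, with 28 genes wholly below vehicle in Samul-tang and 29 in Sagunja-tang, against 13.9% and 16.5% of all genes.

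The single Palmul-tang libraries have no replicates, and a gene was counted when it lay at least 0.25 log2 from the vehicle mean and outside the vehicle range. By this rule 7 of the 82 genes were lower at 500 µg/mL (22.6% of all genes past it in either direction), 28 at 100 µg/mL (25.2%) and 18 at 20 µg/mL (22.1%), and 0 were higher in any of the 3. These shares of all genes mix both directions. Whatever the size, 38, 60 and 52 of the 82 lay below all vehicle libraries at 500, 100 and 20 µg/mL, against 31.5, 33.0 and 31.8% of all genes. Above all vehicle libraries lay 9, 1 and 2 of the 82, against 31.2, 32.1 and 31.1% of all genes. RPL39, at 210 to 225 CPM in vehicle, was at 170, 157 and 166 CPM at 500, 100 and 20 µg/mL. RPS3A was at 371, 331 and 344 CPM, below the lowest vehicle library at 398 CPM. RPL22L1 was at 21.2, 17.1 and 16.8 CPM, inside the vehicle range at 500 µg/mL and below it at the lower doses. In all 3 libraries the median of the 82 was below 0, at -0.09, -0.18 and -0.16.

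**Figure D5:**
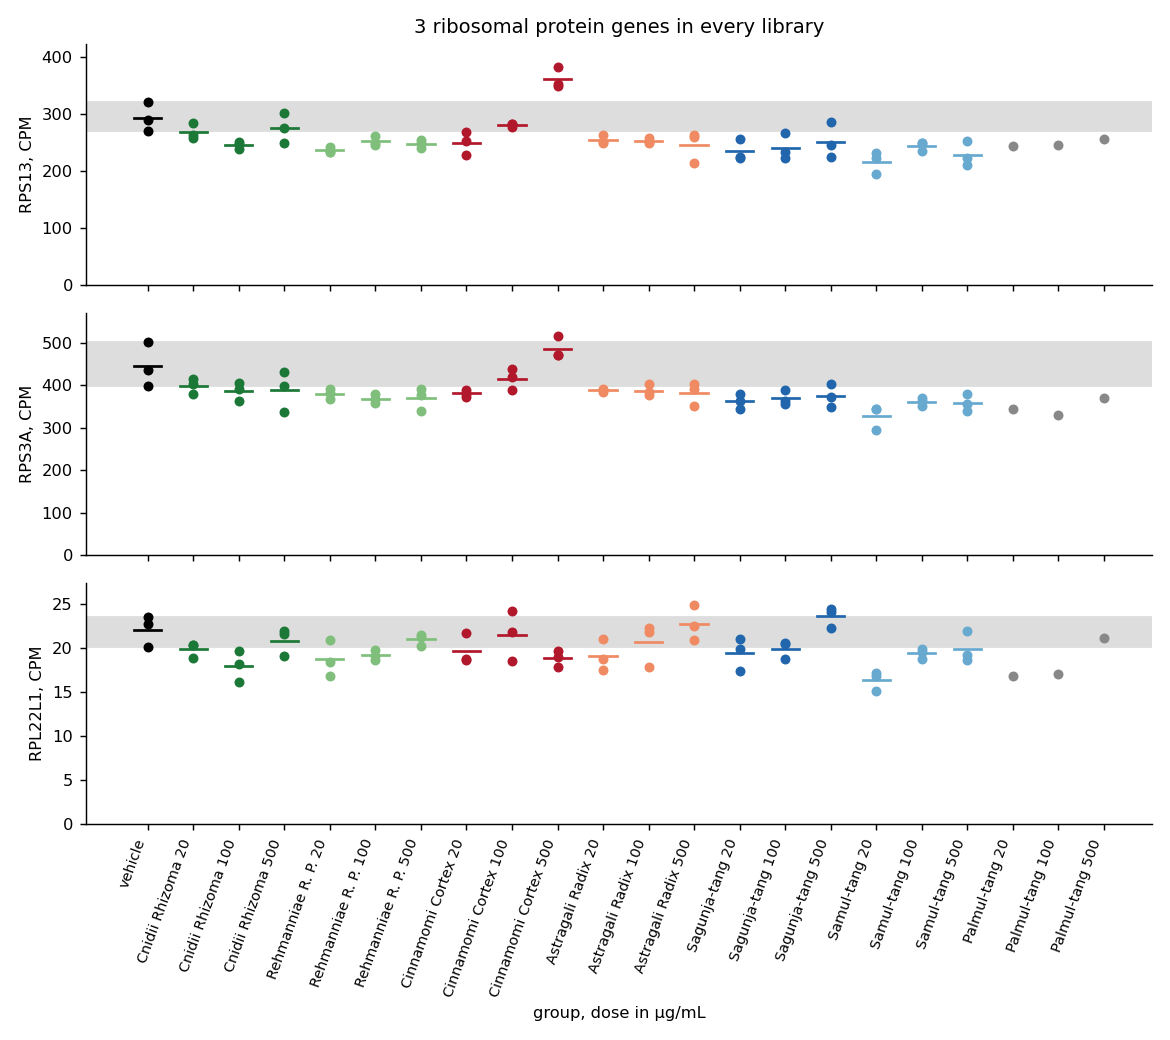
TMM-scaled CPM of RPS13, RPS3A and RPL22L1 in each library by extract and dose in µg/mL; points are libraries, short bars means of 3 libraries and the grey band the range of the 3 vehicle libraries. RPS13 lies above the band in Cinnamomi Cortex at 500 µg/mL (350 to 382 CPM) and below it in all libraries of Samul-tang (195 to 252 CPM against 271 to 321 in vehicle), and RPL22L1 in Samul-tang goes from 15.2 to 17.2 CPM at 20 µg/mL to 18.7 to 22.0 CPM at 500 µg/mL.

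Over the 19 group means, the genes whose log2 CPM followed RPL22L1 most closely were EIF1AX (Pearson r = 0.86), NKRF (0.84), C12orf29 (0.84), FASTKD2 (0.83) and PRMT3 (0.82). For RPS27L they were KIN (0.84), ANP32B (0.80), PSME1 (0.79), CNOT2 (0.78) and NDUFA5 (0.76). These r values describe groups that share sets and sequencing, and they were the highest of all genes tested.

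Other genes of the translation machinery were followed in Cinnamomi Cortex at 500 µg/mL against vehicle, where, as above, 31.1% of all genes were called higher and 31.6% lower with TMM. RACK1, a scaffold protein of the small subunit, was called higher with TMM at a log2 fold change of 0.44 ± 0.046 (adjusted p = 1.16e-11) and with total counts at 0.16 (adjusted p = 0.00699). Of 17 TOP genes that encode translation factors and similar proteins, 10 were called higher and 1 lower with TMM, but 2 higher and 9 lower with total counts. The elongation factor EEF2 had a log2 fold change of 0.57 ± 0.05 (adjusted p = 3.19e-14), EEF1G of 0.42 ± 0.043 (adjusted p = 3.88e-12), TPT1 of 0.37 ± 0.055 (adjusted p = 9.24e-08) and EIF3L of 0.26 ± 0.036 (adjusted p = 1.16e-08). With total counts EEF2 (0.29) and EEF1G (0.14) stayed called, while TPT1 (0.09) and EIF3L (-0.01) were not called. The gene called lower was NPM1, a nucleolar chaperone (-0.22), named after its value was seen.

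The host genes of small nucleolar RNAs, many of which also start with a TOP motif, had more members called lower than higher: 2 of 11 were higher and 6 lower with TMM, and 0 higher and 9 lower with total counts. The difference of these shares from the 31.6% of all genes called lower with TMM was not tested. SNHG1 had a log2 fold change of -1.44 ± 0.054 (adjusted p = 8.25e-28), SNHG32 of -0.64 ± 0.066 (adjusted p = 8e-12), SNHG12 of -0.80 ± 0.097 (adjusted p = 6.08e-10) and EPB41L4A-AS1 of -0.89 ± 0.13 (adjusted p = 1.08e-07). Among 6 chaperones and loading factors of ribosomal proteins, 1 was called higher and 4 lower with TMM, and 0 and 5 with total counts. LTV1, which helps assemble the small subunit, had a log2 fold change of -1.31 ± 0.084 (adjusted p = 7.52e-19), and BCCIP, which escorts RPL23, of -0.51 ± 0.065 (adjusted p = 3.03e-09).

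Of 21 genes of the mTORC1 and LARP1 pathway, 8 were called higher and 6 lower with TMM, and 7 higher and 11 lower with total counts. The counts with TMM lie near the shares of all genes, 31.1% higher and 31.6% lower. DDIT4 and SESN2, whose products restrain mTORC1, had log2 fold changes of 2.22 ± 0.11 (adjusted p = 8.55e-24) and 0.87 ± 0.061 (adjusted p = 1.45e-17). RRAGA, a GTPase that brings mTORC1 to the lysosome, had 0.92 ± 0.068 (adjusted p = 1.44e-16), and EIF4EBP1, the translation repressor that mTORC1 inactivates, 0.82 ± 0.078 (adjusted p = 5.81e-13). LARP1, named after its value was seen, had -0.30 ± 0.043 (adjusted p = 5.03e-08). The 77 mitochondrial ribosomal protein genes had a median of 0.05, with 22 called higher, a share near the 31.1% of all genes, and 13 lower with TMM, and 3 and 47 with total counts. Of 15 tested genes of the mitochondrial genome, 12 were called higher and 0 lower, with a median of 0.59, and 9 higher and 0 lower with total counts.

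In Samul-tang at 500 µg/mL against vehicle, 3 of the 11 small nucleolar RNA hosts were called lower and 0 higher, among them SNHG1 (-0.27 ± 0.051, adjusted p = 0.000219) and SNHG32 (-0.31 ± 0.064, adjusted p = 0.000643), and 10 of the 77 mitochondrial ribosomal protein genes were lower and 1 higher, where 6.26% of all genes were called lower and 7.45% higher. Of the 17 TOP genes 2 were higher and 3 lower, with EIF4B at 0.15 ± 0.035 (adjusted p = 0.0015) and EIF3H at -0.19 ± 0.046 (adjusted p = 0.00323). In Cnidii Rhizoma at 500 µg/mL against vehicle 13 of the 77 mitochondrial ribosomal protein genes were higher and 1 lower (6.11% and 5.67% of all genes). Of the 17 TOP genes there, EEF1D, a subunit of the elongation factor complex, had a log2 fold change of 0.46 ± 0.074 (adjusted p = 2.76e-05). EEF1G was also called higher (0.17 ± 0.043, adjusted p = 0.00727), TPT1 was called lower (-0.18 ± 0.055, adjusted p = 0.0232), and the others were not called.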

How the data were processed

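RNA of HepG2 cells was sequenced as directional mRNA libraries with paired reads, per the labels' protocols. The authors' deposited table holds expected counts per gene (estimated by RSEM, 8.58% of values not whole). Per the submitters' processing notes the tools were RSEM 1.3.3, STAR 2.7.3a, Trim Galore 0.6.5 and FastQC 0.11.9, with build GRCh38; the annotation release is not given in the sources used here. Of 270 columns, 60 matched samples and 210 were not used.

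Expected counts were rounded and filtered with filterByExpr, leaving 16167 of 60675 genes. One edgeR 4.0.16 quasi-likelihood model (R 4.3.3, limma 3.58.1) held the 57 replicated libraries of 19 groups, with TMM scaling and 1 mean per group. The 16 comparisons were 6 top doses against vehicle, 6 dose trends (slope per 5-fold step), 3 pairs of extracts within a set and the mean at 20 µg/mL. P-values were adjusted by Benjamini-Hochberg over all genes tested and called under 0.05. Named were up to 8 genes per direction with the largest called change, a mean of at least 2 CPM and no overlap of the libraries compared, with stalk genes, RPL5, RPL11, RPS6, RPS27A, RPSA and paralogue pairs always named, and up to 4 genes of each other list by adjusted p. Some genes that this rule names are not reported here. Gene types and coding lengths came from GENCODE 29 (57055 genes matched). The likeness to RPL22L1 and RPS27L used Pearson's r of log2 (CPM + 0.5), and the single Palmul-tang libraries log2 ratios of CPM + 0.1. The procedure was tested on simulated data. The genes and lists were chosen with earlier results of these data known. Alternatives were RLE factors, total counts alone, TMM without the 84 and mitochondrial genes, no filter, DESeq2 1.42.0, a replicate block, only the groups compared, and leaving out libraries.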

Additional observations from a re-analysis of the deposited data

Results flagged for a closer look

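Within set 6, Cinnamomi Cortex and Astragali Radix at 500 µg/mL differed in 57 of the 82 ribosomal protein genes by the edgeR test of the difference itself, with 54 higher and 3 lower in Cinnamomi with TMM scaling and 9 higher and 15 lower with total counts alone. That comparison called 62.7% of all genes tested in either direction with TMM, against 69.5% of the 82. Within set 7, Sagunja-tang and Samul-tang at 500 µg/mL differed in 1 gene by the same test, RPL6, higher in Sagunja-tang. There, 0.885% of all genes were called, against 1.22% of the 82.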

How the results depend on the processing

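Counts are of ribosomal protein genes called, of 82, in the order of the 16 comparisons where several are given, and the causes of the shifts were not tested. With total counts alone, against vehicle at 500 µg/mL, 5 were called in Cnidii, 2 in Rehmanniae, 21 in Cinnamomi, 2 in Sagunja-tang and 8 in Samul-tang. In the trends with total counts they were 0 in Cnidii, 21 in Cinnamomi, 0 in Sagunja-tang and 2 in Samul-tang, with 24 for Cinnamomi against Astragali and 0 for Sagunja-tang against Samul-tang. Without the filter on low counts there were 24 in Cnidii, 12 in Rehmanniae, 6 in Astragali, 10 in Sagunja-tang and 33 in Samul-tang at 500 µg/mL. In the trends without the filter there were 13 in Cnidii, 12 in Rehmanniae, 11 in Sagunja-tang and 13 in Samul-tang, with 16 between Cnidii and Rehmanniae, 5 between Sagunja-tang and Samul-tang and 30 for the mean at 20 µg/mL. A fit limited to the groups compared gave 2 in Cnidii, 8 in Rehmanniae and 10 in Samul-tang at 500 µg/mL, 0, 2 and 0 in their trends, and 0 between Sagunja-tang and Samul-tang. DESeq2 called 2 in Astragali and 3 in Sagunja-tang at 500 µg/mL, 4, 3 and 7 in the trends of Cnidii, Rehmanniae and Samul-tang, and 2 between Sagunja-tang and Samul-tang. RLE factors gave 1 in the Sagunja-tang trend. The log2 ratio of summed shares, Cinnamomi over vehicle at 500 µg/mL, was -0.03 over all counts and 0.07 without mitochondrial counts. TMM without the 84 and mitochondrial genes, and leaving out the first libraries of set 6, kept every count they were run on within 1.5 times.

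With total counts, 23 of the 56 called genes turned sign in Cinnamomi at 500 µg/mL, 11 of 63 in its trend and 16 of 57 against Astragali. Among the genes named by rule these were RPLP0 (-0.06), RPL5 (-0.09), RPL7 (-0.11) and RPSA (-0.16) in Cinnamomi at 500 µg/mL, RPL3 (-0.0), RPL5 (-0.01), RPS6 (-0.06), RPL11 (-0.02) and RPSA (-0.01) in its trend, and RPL3 (-0.02), RPL5 (-0.07), RPS27A (-0.02), RPL7 (-0.09) and RPSA (-0.07) against Astragali. Of 93 named changes, total counts turned 14 and ended the call of 36, and the replicate block ended 0.

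Replicate numbers were treated as sample names only. Deviations of same-numbered libraries of different groups had a median correlation of 0.01 to 0.03, and others of -0.02 to 0.01. Single correlations ran from -0.12 to 0.18 for the same number and from -0.16 to 0.17 for others. Whether same-numbered libraries share a preparation was not tested. With the replicate block the counts were within 1.5 times of those without it, except 2 in place of 1 in Sagunja-tang at 500 µg/mL.

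Leaving out 1 library at a time gave 3 to 18 in Cnidii, 1 to 3 in Rehmanniae, 48 to 58 in Cinnamomi, 0 to 2 in Astragali, 0 to 6 in Sagunja-tang and 3 to 25 in Samul-tang at 500 µg/mL. In the trends it gave 0 to 9, 0 to 4, 55 to 67, 0 to 0, 0 to 2 and 0 to 11 in that order, then 0 to 5 between Cnidii and Rehmanniae, 48 to 57 between Cinnamomi and Astragali, 0 to 2 between Sagunja-tang and Samul-tang, and 2 to 17 for the mean at 20 µg/mL. Depth limits RPL3L most, which had 0.994, 0.76 and 1.45 CPM in the vehicle libraries.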
